A study of Mus musculus with 2 samples.

Results

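Potassium channel genes were examined in the H3K27me3 peak list of mouse primary chondrocytes. The members were the genes whose symbols begin with Kcn, and 63 of the 4987 gene symbols that the annotated peak table joined to a peak within 5 kb were of this kind. The gene table listed 98 Kcn genes, of which 94 coded for proteins and 4 were non-coding RNA genes. Of the protein-coding genes, 61 had a peak and 33 had none within 5 kb. The cells came from newborn CD1 mice, wild type, whose rib cartilage was digested with collagenase 2, and were cultured overnight in medium with bovine fetal serum, and they received no treatment. One library of DNA precipitated with an H3K27me3 antibody (ChIP) was compared with 1 library of input DNA, and the number of mice pooled was not given in the sources used here. The libraries were told apart by their titles, because their antibody tags contradict the titles: H3K27me3 is the tag of the input, and input that of the ChIP DNA. Each group held 1 library, so no value has a replicate check, and no test over genes was made.

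Potassium channels are membrane proteins that let potassium ions leave or enter the cell down their gradient and thereby set the membrane potential. Voltage-gated channels open on depolarization and end action potentials in nerve and muscle, inward rectifiers and two-pore channels hold the resting potential, and calcium-activated channels couple the potential to intracellular calcium. Accessory subunits bind the pore-forming proteins and change their gating or transport. H3K27me3, trimethylation of lysine 27 of histone H3, is laid down by Polycomb repressive complex 2 (PRC2) and is found over many genes that a cell type does not use. Chondrocytes are not electrically excitable in the manner of neurons, but several potassium channel types have been described in them.

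After filtering, 17237574 tags remained for ChIP and 17004082 for input, and the peak list held 19359 peaks. Each peak has a pileup, the ChIP fragments that lie over it on average, a fold enrichment over the input background and a q-value averaged over the peak, which can exceed the calling cutoff of 0.05. None of 11 cartilage genes, Col2a1, Acan and Sox9 among them, had a peak within 5 kb, against 6 of 6 regulators of the neural lineage and 5 of 5 of the muscle lineage.

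Most potassium channel genes carried a peak. Of 94 protein-coding Kcn genes, 61 (64.9%, 95% Wilson interval 54.8 to 73.8%) had a peak within 5 kb, against 20.7% of all protein-coding genes. The share was 80% (12 of 15, 54.8 to 93.0%) for the inward rectifiers, 72.5% (29 of 40, 57.2 to 83.9%) for the voltage-gated subunits and 71.4% (10 of 14, 45.4 to 88.3%) for the two-pore channels. It was 50% (4 of 8, 21.5 to 78.5%) for the calcium-activated channels and their relatives, and 35.3% (6 of 17, 17.3 to 58.7%) for the accessory subunits. The intervals cover counting error only, and genes of a family are not independent draws. Only the interval of the accessory subunits reached down to the share of all genes, but the intervals of every pair of subfamilies overlapped, so the order of the subfamilies is not separated by these counts. Of the voltage-gated groups itemised here, 6 of 8 Kcna genes, 6 of 8 Kcnh genes, 2 of 3 Kcnd genes and 1 of 2 Kcnb genes had a peak. The silent subunits Kcnf, Kcng, Kcns and Kcnv, which form channels only together with other voltage-gated subunits, had one in 6 of 10 genes. Among the accessory subunits, 3 of 4 Kcnip genes, 2 of 4 Kcnmb genes, 1 of 3 Kcnab genes and 0 of 5 Kcne genes had a peak.

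**Figure D1:**
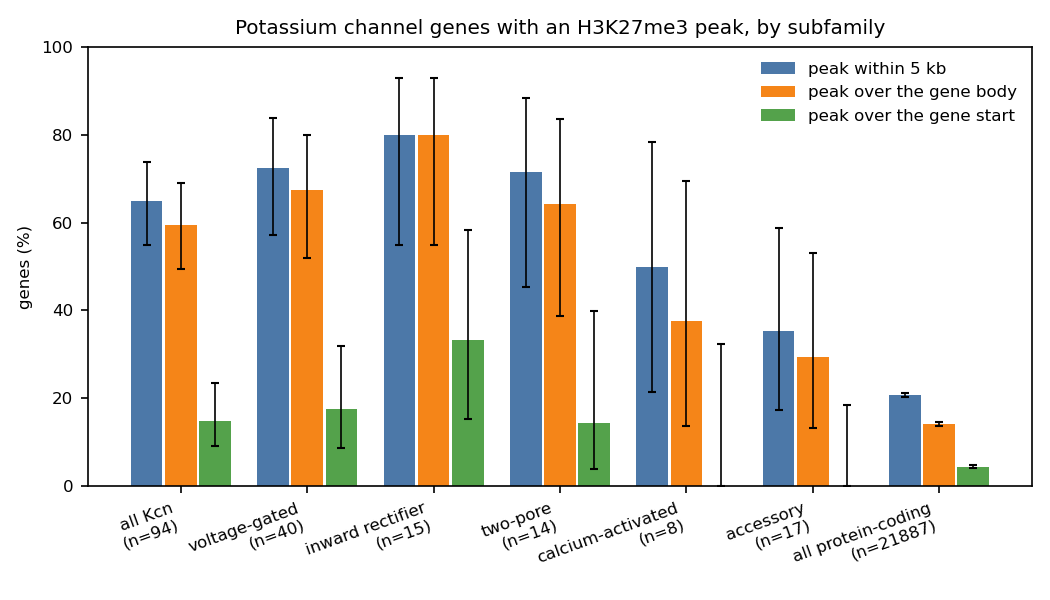
Share of genes (%) with a peak within 5 kb, over the gene body and over the gene start as the annotated table's records place them, for all protein-coding Kcn genes, the 5 subfamilies and all protein-coding genes; bars start at 0 and error bars are 95% Wilson intervals. Inward rectifiers stand highest on all 3 measures, though not for starts placed by the gene table (26.7% against 28.6% for two-pore channels), and no calcium-activated or accessory gene had a peak over its start.

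Stricter limits kept the family above the background. With peaks limited to a mean q-value of 0.05, 53 Kcn genes had one (56.4%, 46.3 to 66.0%), against 16.4% of all protein-coding genes. With the limit at 0.01 there were 16 (17.0%, 10.8 to 25.9%) against 5.9%, of which 10 were voltage-gated, 3 inward rectifiers, 3 two-pore channels and none calcium-activated or accessory. A fold enrichment of at least 3.5 was reached at 13 genes (13.8%, 8.26 to 22.2%) against 5.35%, split into 7 voltage-gated genes, 3 inward rectifiers and 3 two-pore channels. A peak of 10 kb or more was joined to 7 genes (7.45%, 3.65 to 14.6%) against 2.63%. Kcna5 is among the 7 only through the 27.7 kb peak that covers Kcna1. That peak lies in the Kcna5 record of the annotated table, which is far longer than the gene, and not at the gene. A peak overlapped the gene record of the annotated table at 56 Kcn genes (59.6%, 49.5 to 68.9%) against 14.2%, and 5 had peaks only in the flanks of the record, where 6.51% of all genes did. With the spans of the gene table the overlap was 57 genes (60.6%) against 15.3%.

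Gene length differed between the family and the rest. The median length was 32.7 kb for the Kcn genes and 17.2 kb for all protein-coding genes. Within each length class the Kcn share was still the higher one. Below 10 kb, 11 of 21 Kcn genes (52.4%) had a peak, against 17.1% of all genes of that length. From 10 to 50 kb it was 21 of 35 (60.0%) against 19.4%, from 50 to 200 kb 17 of 20 (85.0%) against 25.8%, and above 200 kb 12 of 18 (66.7%) against 41.9%. In the longest class no Kcn gene passed the strict limits. It was 0 of 18 against 11.9% of all genes at a q-value of 0.01 and 11.4% at a fold enrichment of 3.5. No interval was computed here, and 0 of 18 is too small a count to place this class below all genes. The other 3 classes kept the higher Kcn share. Kcn genes with a peak had a median length of 42.7 kb and those without one 15.1 kb. Among the voltage-gated genes both medians were close (32.1 kb with and 32.5 kb without), and the accessory genes with a peak were long (331 kb) and those without short (8.36 kb). Inward rectifiers (31.0 kb with and 10.2 kb without) and two-pore channels (41.9 and 9.24 kb) went the same way, and calcium-activated genes the other way (103 kb with and 229 kb without).

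**Figure D2:**
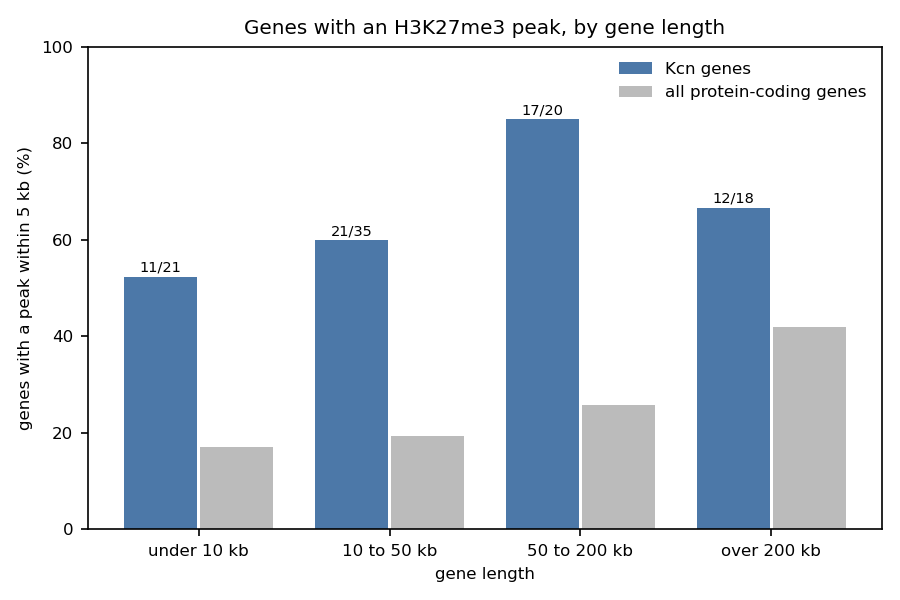
Share of genes (%) with a peak within 5 kb in 4 classes of gene length, for Kcn genes (counts above the bars) and for all protein-coding genes. The Kcn bar is higher in every class, with 52.4% against 17.1% below 10 kb and 66.7% against 41.9% above 200 kb. With a q-value limit of 0.01 or a fold limit of 3.5, 0 of 18 Kcn genes above 200 kb had a peak. This count is too small to place that class below all genes.

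The peaks themselves were of ordinary size and strength for this list. The 204 peaks at Kcn genes had a median width of 1.30 kb (quartiles 0.804 and 2.67 kb) and a median fold enrichment of 3.19, against 1.41 kb and 3.18 for all 10238 peaks with a gene symbol. The narrowest measured 0.294 kb and the widest 27.7 kb, and fold enrichment ran from 2.80 to 3.77. Median width was 1.70 kb over 102 voltage-gated peaks and 1.88 kb over 10 calcium-activated peaks, and it was 1.13 kb over 33 inward rectifier peaks, 1.20 kb over 28 two-pore peaks and 1.11 kb over 29 accessory peaks. Of the pairs of a peak and a Kcn gene, 65.7% lay inside the gene record, 20.5% upstream, 3.33% downstream and 6.19% across the start. Over all pairs the values were 54.2, 20.9, 11.1 and 7.21%. The 138 inside pairs include 20 at Kcnip1 and 17 at Kcna5, whose record is overlong. Only 1 of these 17 peaks lay within 5 kb of Kcna5 in the gene table, and all 17 are among the voltage-gated peaks. Without overlong records the median width at protein-coding Kcn genes was 1.36 kb. Summed per gene, peaks reached a median of 5.81 kb at Kcn genes with a peak and 3.75 kb at all protein-coding genes with a peak. A sum of 10 kb or more was found at 16 of 61 Kcn genes (26.2%) and at 22.1% of all genes with a peak. Kcna5 is among the 16 through its overlong record.

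**Figure D3:**
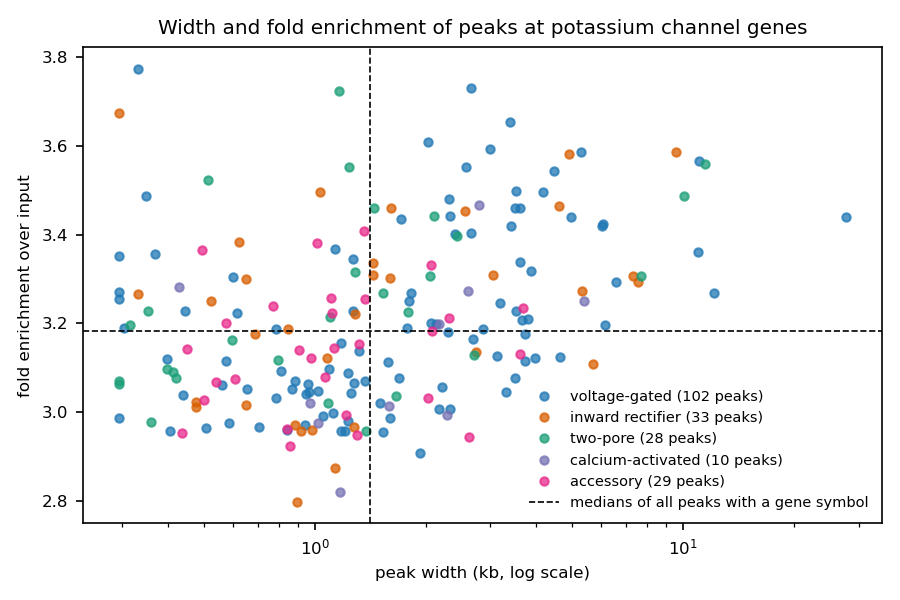
Width (kb, log axis) and fold enrichment over input of each peak at a protein-coding Kcn gene, coloured by subfamily, with dashed lines at the medians of all peaks with a gene symbol (1.41 kb and 3.18). Peaks of all subfamilies lie on both sides of both lines, and the widest is the 27.7 kb peak at Kcna1.

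Peaks lay over the starts of 14 Kcn genes (14.9%, 9.08 to 23.5%), against 4.45% of all protein-coding genes. A gene start is here the 5′ end of the gene record in the annotated table. Voltage-gated genes supplied 7 of them (17.5%), inward rectifiers 5 (33.3%, 15.2 to 58.3%) and two-pore channels 2 (14.3%). None of the 8 calcium-activated genes (upper limit 32.4%) and none of the 17 accessory genes (upper limit 18.4%) had a covered start. The starts of the gene table gave 19 covered genes in place of 14, with Kcnc4, Kcnh1, Kcnk10 and Kcnk13 among those added and Kcnj3 lost, and 4.5% of all genes were then covered. They were 11 voltage-gated genes (27.5%), 4 inward rectifiers (26.7%) and 4 two-pore channels (28.6%), so the 3 subfamilies did not stand apart with these starts. Among the genes with a peak, the start was covered at 23.0% of Kcn genes and 21.5% of all genes with the record starts, and at 31.1 and 21.7% with the gene-table starts.

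Upstream sequence of 3 genes with a covered start and 3 without a peak is shown as examples of promoters under a peak and far from one, with CpG marked because PRC2 is known to occupy CpG-rich promoters. Each is the 250 bases before the start in RefSeq (GRCm38.p6), written 5′ to 3′ on the strand of the gene, with CpG in capitals. Kcnj6 (chr16:94997697-94997946, minus strand), Kcnk15 (chr2:163853500-163853749, plus strand) and Kcnh5 (chr12:75177333-75177582, minus strand) lay whole under a peak and were the 3 genes of largest peak sum among those with a covered start and a sequence that begins at the start in the gene table. Kcnab2 (chr4:152477550-152477799, minus strand), Kcnk5 (chr14:20181783-20182032, minus strand) and Kcns1 (chr2:164171114-164171363, minus strand) were chosen as the genes without a peak with the highest ratio of observed to expected CpG.
Kcnj6: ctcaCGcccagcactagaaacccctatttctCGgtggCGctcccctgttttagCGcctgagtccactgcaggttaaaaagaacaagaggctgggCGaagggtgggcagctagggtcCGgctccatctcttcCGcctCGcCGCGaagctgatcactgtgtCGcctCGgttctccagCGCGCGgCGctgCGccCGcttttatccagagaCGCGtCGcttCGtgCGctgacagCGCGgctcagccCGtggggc
Kcnk15: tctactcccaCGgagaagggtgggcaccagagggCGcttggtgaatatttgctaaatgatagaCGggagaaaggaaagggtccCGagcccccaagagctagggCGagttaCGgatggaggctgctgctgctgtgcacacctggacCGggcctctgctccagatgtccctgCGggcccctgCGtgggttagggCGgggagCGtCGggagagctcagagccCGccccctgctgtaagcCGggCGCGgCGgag
Kcnh5: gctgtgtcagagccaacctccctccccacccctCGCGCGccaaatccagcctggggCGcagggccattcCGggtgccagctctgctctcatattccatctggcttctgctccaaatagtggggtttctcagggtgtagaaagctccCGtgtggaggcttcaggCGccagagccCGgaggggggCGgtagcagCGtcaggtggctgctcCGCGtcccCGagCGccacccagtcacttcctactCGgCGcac
Kcnab2: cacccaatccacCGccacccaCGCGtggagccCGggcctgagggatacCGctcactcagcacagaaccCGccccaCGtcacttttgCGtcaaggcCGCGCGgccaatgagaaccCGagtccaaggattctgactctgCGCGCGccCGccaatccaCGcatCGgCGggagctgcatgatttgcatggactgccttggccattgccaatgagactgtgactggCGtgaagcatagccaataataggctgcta
Kcnk5: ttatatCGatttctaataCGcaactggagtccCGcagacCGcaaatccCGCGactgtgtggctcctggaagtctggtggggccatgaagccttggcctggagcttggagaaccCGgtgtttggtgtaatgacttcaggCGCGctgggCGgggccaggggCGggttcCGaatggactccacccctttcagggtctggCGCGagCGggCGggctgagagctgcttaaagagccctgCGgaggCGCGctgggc
Kcns1: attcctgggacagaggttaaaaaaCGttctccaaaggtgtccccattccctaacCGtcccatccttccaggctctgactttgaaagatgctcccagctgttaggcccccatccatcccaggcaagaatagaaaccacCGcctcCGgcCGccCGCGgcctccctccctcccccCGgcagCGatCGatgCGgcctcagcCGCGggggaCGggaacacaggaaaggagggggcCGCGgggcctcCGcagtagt
The sequences under a peak held 26 CpG at Kcnj6, 17 at Kcnk15 and 16 at Kcnh5. Those without a peak held 20 at Kcnab2, 19 at Kcnk5 and 17 at Kcns1, and the nearest peak was 91.3, 86.9 and 90.6 kb away. Since the unmarked genes were picked for CpG, these counts compare nothing between the groups. The median over 10803 upstream sequences of protein-coding genes was 7 CpG (quartiles 2 and 17). Only 69 of 94 Kcn genes (73.4%) had an upstream sequence, so no value of the family by CpG content is given.

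Among the voltage-gated subunits, the widest peak of the family covered Kcna1, which encodes a low-threshold channel of axons. This peak (chr6:126626144-126653815) measured 27.7 kb, with a pileup of 12.43 and 3.44-fold enrichment (q-value 0.0105), and the whole 9.34 kb gene lay under it. The same peak was also joined to Kcna5, a channel of atrial muscle, whose record in the annotated table is 55.1 times as long as the gene in the gene table. Of the 17 peaks joined to Kcna5 (49.1 kb in sum), the one within 5 kb of the gene in the gene table was chr6:126535899-126539857, 3.96 kb wide, 3.12-fold enriched and 344 bp from the gene, so the sum for Kcna5 describes the long record and not the gene.

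The eag-type genes Kcnh5 and Kcnh3, known for expression in brain, carried the next wide peaks of this subfamily. Kcnh5 had 1 peak (chr12:75171596-75183715) of 12.1 kb over the start of a 280 kb gene, at 3.27-fold and a q-value of 0.0258. Kcnh3 had an 11.1 kb peak over its start at 3.57-fold (q-value 0.00575), followed by peaks of 1.78 and 0.946 kb inside the gene. Both starts were thus marked, and at Kcnh5 the rest of the gene was free of peaks.

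Silent subunits were marked at the start in 3 genes. Kcng1 had an 11.0 kb peak over the start (3.36-fold) and a 2.33 kb peak upstream, and Kcnf1 had 1 peak of 6.13 kb (3.20-fold) over 95.2% of the gene. Kcns3 had a 5.29 kb peak (3.59-fold) that reached the start from upstream and overlapped only 63 bases of the gene, and a 2.57 kb peak inside it. Kcng2 had no peak over its start, but it held the highest fold enrichment of the family, 3.77 over 331 bp inside the gene (q-value 0.00342), and the lowest q-value, 0.00257, at a 3.40 kb peak 2061 bp upstream.

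Kcnc1, a channel that allows fast-spiking neurons to fire at high rates, had a 6.58 kb peak over the start at 3.29-fold, with a second of 1.25 kb inside the gene. Its relative Kcnc4 had peaks of 2.66 kb (3.73-fold, q-value 0.00364) inside the gene and 1.72 kb upstream, the former with the second highest fold enrichment of the family.

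The long gene Kcnd3 carried a series of peaks. It encodes a subunit of the transient outward current of heart and brain and had 12 peaks of 0.787 to 3.88 kb that summed to 23.5 kb, with fold enrichment from 2.98 to 3.46, and 11 of them lay inside the gene. The non-coding Kcnd3os shared 2 peaks with Kcnd3, of 3.80 and 3.88 kb, and its record exceeds the gene table by over 2 times, as does that of Kcna5.

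The inward rectifiers with a covered start included all 4 genes of the G-protein-gated channels, Kcnj3, Kcnj5, Kcnj6 and Kcnj9, which slow the heart and inhibit neurons when a receptor activates them. With the starts of the gene table it was 3 of the 4, without Kcnj3, whose record begins inside the gene of the gene table. This grouping was made after the values were seen. The peak over the start measured 3.05 kb (3.31-fold, q-value 0.0252) at Kcnj3, 9.60 kb (3.59-fold, 0.0051) at Kcnj5, 7.31 kb (3.31-fold, 0.0206) at Kcnj6 and 7.57 kb (3.29-fold, 0.0261) at Kcnj9. Kcnj6 had 6 further peaks of 0.477 to 1.28 kb inside the gene, and Kcnj3, Kcnj5 and Kcnj9 had none. The remaining covered start belonged to Kcnj10, a channel of glial cells and a neighbour of Kcnj9, with a 5.71 kb peak at 3.11-fold and a mean q-value of 0.0509. Kcnj10 also had a 295 bp peak at 3.67-fold, 10.9 kb inside the gene. Kcnj9 and Kcnj10 lay within 200 kb of each other but shared no peak.

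Kcnj4, a strong rectifier of brain and heart, had 4 peaks that summed to 12.0 kb, the widest of which was 5.33 kb and began 196 bp inside the gene. A 4.91 kb peak at 3.58-fold ended 1063 bp upstream of its start. Kcnj8, the pore of ATP-sensitive channels of vascular muscle and a channel type described in chondrocytes, had peaks of 4.60 kb inside the gene (3.46-fold, q-value 0.0131) and of 1.04 and 1.60 kb upstream, and 71.7% of its gene lay under a peak. Of the rectifiers without a peak, Kcnj16 was nearest to one, at 12.3 kb.

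Two-pore channels had a covered start at Kcnk4 and Kcnk15. Kcnk4, a channel opened by membrane stretch and lipids, lay whole under an 11.5 kb peak (chr19:6924808-6936319) at 3.56-fold (q-value 0.00551), which the table also joined to Esrra, Gpr137 and Tex40. Kcnk15 had a 10.0 kb peak (3.49-fold, q-value 0.0112) over 98.2% of the gene and a 2.71 kb peak downstream. Kcnk13 had a 7.71 kb peak 1533 bp inside the gene, a 2.44 kb peak ending 350 bp upstream and a 1.09 kb peak farther in. Kcnk10, another stretch-sensitive channel, had 6 peaks of 0.419 to 1.67 kb, of which 1 reached 3.72-fold (1.16 kb, q-value 0.00427), the third highest of the family. Kcnk5, an acid-sensitive channel described in chondrocytes, had no peak, and the nearest lay 45.1 kb from the gene.

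The calcium-activated group was marked inside or beside genes and never over a start. Kcnt1, a sodium-activated relative, had 4 peaks inside the gene of 1.02 to 2.61 kb, which summed to 7.40 kb at 2.98- to 3.27-fold. The small-conductance genes Kcnn2, Kcnn3 and Kcnn1 had sums of 5.40, 4.85 and 2.79 kb. The single Kcnn2 peak lay 291 kb inside the gene, the nearest of 4 Kcnn3 peaks lay 3.36 kb inside, and the single Kcnn1 peak lay 4826 bp upstream. Kcnma1, the large-conductance channel and one of the types described in chondrocytes, had no peak within 5 kb across its 713 kb, and the nearest was 5.82 kb away, just outside the limit.

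Most accessory peaks belonged to 1 gene. Kcnip1, a calcium-binding partner of the Kcnd channels, held 21 of the 29 accessory peaks, and the median width of the other 8 was 1.21 kb. The Kcnip1 peaks measured 0.435 to 3.61 kb and summed to 25.1 kb, but they covered 6.34% of the record and the nearest lay 142 kb inside from its start. Kcnmb4, a beta subunit of the large-conductance channel in brain, had 3 peaks of 2.63, 1.11 and 2.07 kb, all of them also joined to the non-coding Kcnmb4os2, whose start was covered. Kcnab1 had 2 peaks of 3.68 and 0.842 kb and Kcnmb2 had 1 of 1.30 kb with a q-value of 0.0777. Among the accessory genes without a peak, Kcnab2 was nearest to one, at 33.0 kb. Of 6 accessory genes with a peak, 3 had no peak that passed a mean q-value of 0.05, and the same was true of 3 of 29 voltage-gated genes, 1 of 12 inward rectifiers, 1 of 10 two-pore channels and 0 of 4 calcium-activated genes. For the family this made 8 of 61 (13.1%), against 20.7% of all protein-coding genes with a peak.

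**Figure D4:**
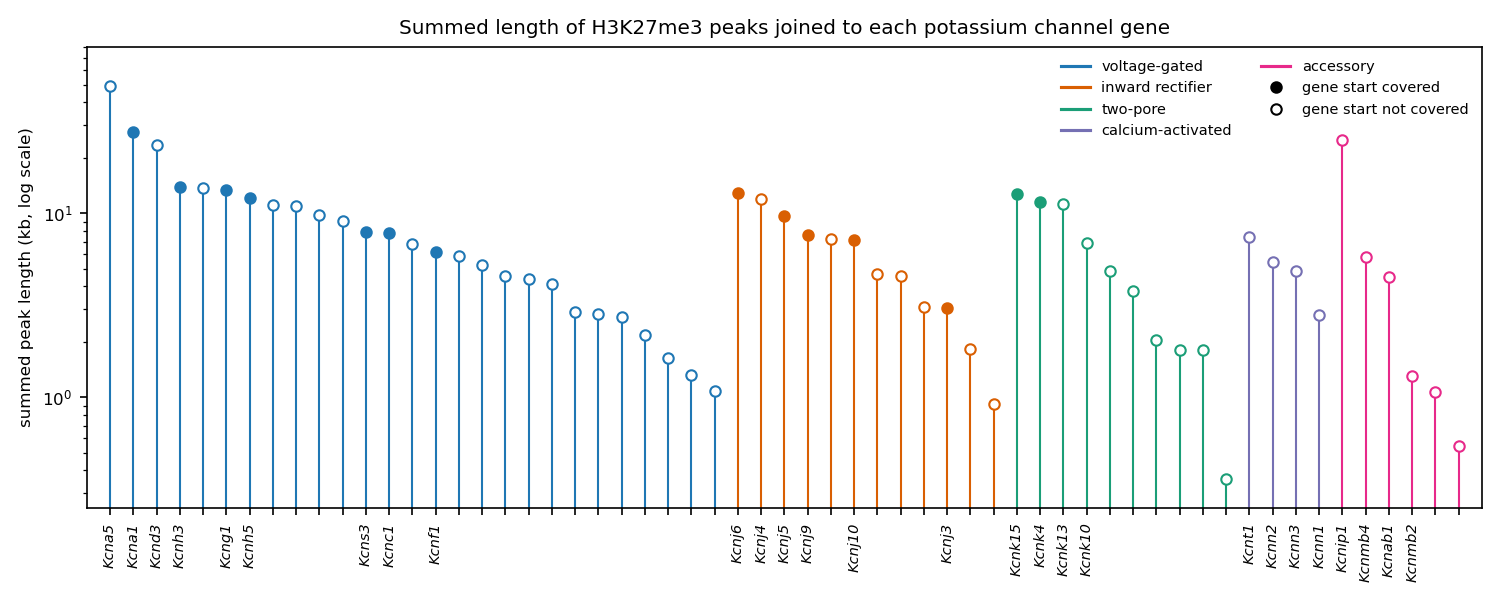
Summed width of the peaks joined to each of 59 protein-coding Kcn genes with a peak (kb, log axis), ordered within each subfamily; filled circles mark genes with a covered start. Names are given for those and for genes with one of the 4 largest sums of their subfamily. Kcna5 (49.1 kb, with an overlong record) and Kcna1 (27.7 kb) stand highest, and Kcnip1 (25.1 kb) exceeds all other accessory genes.

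Many uncovered starts lay in a gap between peaks. At 25 of 61 Kcn genes (41.0%) the start was free of a peak while peaks lay within 5 kb on both sides of it, against 17.5% of all protein-coding genes with a peak. Among genes with 2 or more peaks it was 25 of 45 (55.6%) against 33.8%. These were 13 voltage-gated genes, 5 inward rectifiers, 5 two-pore channels, 2 accessory genes and no calcium-activated gene. Including the non-coding Kcnd3os, the gap between the flanking peaks had a median of 1.87 kb and ran from 1.19 to 3.85 kb, where the smallest gap between any neighbouring peaks in the list was 1177 bp. At Kcnk10 the upstream peak ended 264 bp before the start and the next began 926 bp after it. The distances were 553 and 966 bp at Kcng2, 653 and 1006 bp at Kcnd3, 1078 and 1030 bp at Kcnc4, 1062 and 1640 bp at Kcnj8, 921 and 615 bp at Kcnmb4 and 757 and 555 bp at Kcnab1. The count depended on where the start was placed. With the starts of the gene table it was 16 of 61 (26.2%) against 15.3%, and 6 of the 25 starts were then covered, those of Kcnk10 and Kcnc4 among them. With peaks limited to a q-value of 0.05 it was 18 of 53 (34.0%) against 14.5%, and limited to 0.01 it was 1 of 16 (6.25%) against 5.80%. This pattern was looked for after the data were seen.

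**Figure D5:**
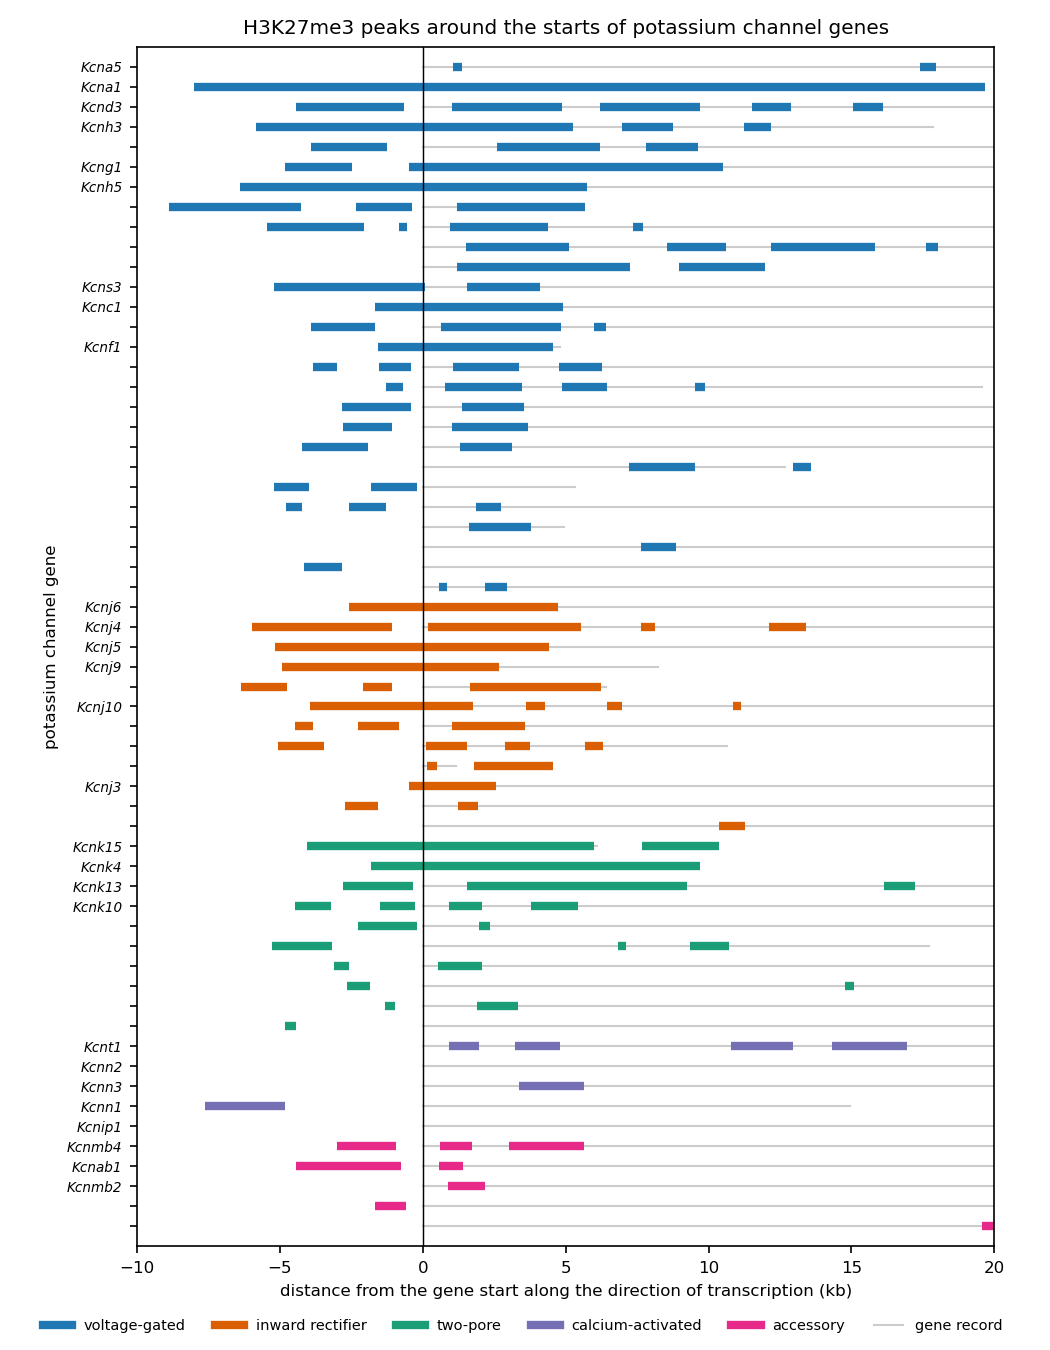
Peaks (bars) from 10 kb upstream to 20 kb downstream of the gene start, along the direction of transcription, for 59 protein-coding Kcn genes with a peak, named as in the plot of summed width; grey lines are the gene records and genes are ordered by summed peak width within each subfamily. Bars cross the line at 0 in 14 genes, and at 23 genes bars stand on both sides of it with a gap of 1.19 to 3.85 kb.

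The 33 protein-coding Kcn genes without a peak were mostly far from one. Of the 4 non-coding genes, Kcnd3os and Kcnmb4os2 had peaks, and Kcnmb4os1 and Kcnq1ot1, the imprinted antisense RNA of the Kcnq1 domain, lay 47.0 and 102 kb from the nearest. Among the protein-coding genes, the nearest peak lay at a median of 106 kb, with a range from 5.82 to 1031 kb, and 4 genes had one within 20 kb. Kcna4, a rapidly inactivating channel described in chondrocytes, was the farthest, at 1031 kb, although 6 of the 8 Kcna genes had a peak. Of the voltage-gated genes without a peak, Kcna6 was nearest to one, at 11.2 kb, and it lies in one locus with Kcna1 and Kcna5. Both Kcn genes of the X chromosome, Kcnd1 and Kcne1l, had no peak, where 57 of 966 protein-coding genes of that chromosome had one. Grouped by position, the 94 genes fell into 84 loci, with neighbours within 200 kb joined. All members had a peak at the loci of Kcna2, Kcna3 and Kcna10, of Kcnj9 and Kcnj10 and of Kcnj1 and Kcnj5, and none had one at those of Kcnk5 and Kcnk16 and of Kcne1 and Kcne2. At the other 3 loci with several members, some had a peak and some had none.

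Genes of other ion channels gave the setting for these shares. Peaks were joined to 18 of 26 voltage-gated calcium channel genes (69.2%, 50 to 83.5%), 7 of 14 sodium channel genes (50%, 26.8 to 73.2%), 6 of 10 cyclic nucleotide-gated and Hcn genes (60.0%, 31.3 to 83.2%), 11 of 28 TRP channel genes (39.3%, 23.6 to 57.6%) and 7 of 22 chloride channel genes (31.8%, 16.4 to 52.7%). The interval of the Kcn family overlapped those of the calcium, sodium, cyclic nucleotide-gated and TRP channels, and its lower bound of 54.8% was above the upper bound of the chloride channels. With the q-value limit of 0.01 the Kcn share (17.0%, 10.8 to 25.9%) and that of the chloride channels (9.09%, 2.53 to 27.8%) overlapped. At that limit the calcium (38.5%, 22.4 to 57.5%) and sodium channels (28.6%, 11.7 to 54.6%) stood above the Kcn share with overlapping intervals, and the TRP channels (3.57%, 0.633 to 17.7%) stood below it. A list of partners was named gene by gene, with earlier results of these data known, so its intervals do not measure a sampled share. All 10 listed partners of potassium channels outside the Kcn symbols had a peak (100%, 72.2 to 100%), where 20.7% of all protein-coding genes did. They were Abcc8 and Abcc9, the sulphonylurea receptors of the ATP-sensitive channels, Dpp6 and Dpp10, partners of the Kcnd channels, Lrrc26, Lrrc38, Lrrc52 and Lrrc55, gamma subunits of the large-conductance channel, and Amigo1 and Lgi1. The Abcc8 peaks include one that was also joined to its neighbour Kcnj11. With the limit of 0.05 on the q-value the count was 7 of 10 (70%, 39.7 to 89.2%), against 16.4% of all genes, and with the limit of 0.01 it was 2 of 10 (20%, 5.67 to 51.0%) against 5.9%. At 0.05, Abcc9, Lrrc38 and Lrrc55 were no longer counted. All 4 gamma subunits thus had a peak while Kcnma1, the pore they bind, had none within 5 kb.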

How the data were processed

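H3K27me3 ChIP-seq was analysed in 1 ChIP and 1 input library of primary rib chondrocytes, grouped by their titles. Per the submitters' processing notes, CASAVA 1.8.4, Bowtie2 and MACS2 were used with build mm10, and per the file headers broad peaks were called by MACS 2.1.0.20140616 at a q-value cutoff of 0.05. Pileup is a coverage signal, fold enrichment a ratio over the input background, and p-values and q-values are −log10 values averaged over each peak, all as the authors deposited them. Deposited pileup and fold values of all 19359 peaks were equal in both tables. The authors also joined peaks to Ensembl gene records within 5 kb, and the tool for this step was not given in the sources used here. The authors trimmed reads and removed duplicates before calling. The redundant rate was 0.02 in each library, and with about equal depth the lowest pileup of a called peak was 9.86 fragments, so weaker enrichment could not be seen.

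Symbols were split and matched to RefSeq genes (GRCm38.p6), a table that holds no exons. The background was its 21887 protein-coding genes. Subfamilies were set by symbol. Kcnt and Kcnu genes were counted with the calcium-activated channels and Kcnrg with the accessory genes. Shares carry 95% Wilson intervals. The peak geometry was tested on simulated data. Named genes were those with a covered start, the 4 largest peak sums per subfamily, the 5 widest and 3 most enriched peaks, genes sharing a peak, overlong records, 4 channel types described in chondrocytes and the unmarked gene nearest to a peak in each subfamily. Values of 2 genes are not reported here, though both stay in the counts. Members and lists were chosen with earlier results of these data known. Alternatives were stricter limits on q-value, fold enrichment and width, other overlap rules, the gene-table span, loci and lists without single genes. Python 3.11.15, pandas 2.3.3 and SciPy 1.17.1 were used.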

Additional observations from a re-analysis of the deposited data

How the results depend on the processing

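Of 77 values recomputed for 10 results on the family, 54 stayed within the 95% interval of the reported value and 23 moved out of it. The accessory share was 17.6% (6.19 to 41.0%) with the limit of 0.05, against 16.4% of all genes. With the q-value limit of 0.01 and with the fold limit of 3.5, no calcium-activated (0 of 8) and no accessory gene (0 of 17) was counted. The upper limits of these shares, 32.4 and 18.4%, reach above the shares of all genes. With peaks limited to a q-value of 0.01, the share with a peak was 17.0% for the family, 25% for voltage-gated, 20% for inward rectifier, 21.4% for two-pore and 0% for both calcium-activated and accessory genes, the share with a covered start was 4.26%, and median width and fold enrichment were 3.40 kb and 3.57. Limited to a fold enrichment of 3.5 or more, the shares in the same order were 13.8, 17.5, 20, 21.4, 0 and 0%, the covered start 4.26%, the medians 2.83 kb and 3.59, and the share of pairs that overlap the gene body 68.8%. Median width and fold enrichment were 1.93 kb and 3.27 with the limit at 0.05 and 2.17 kb and 3.23 with peaks of at least 1 kb. Fewer peaks qualify under each limit by construction, and all protein-coding genes fell too, to 5.9% and 5.35% with a peak and to 1.63% and 1.43% with a covered start, with the limits of 0.01 and 3.5. Gene-table spans, overlap rules, loci and lists without overlong records moved none of the family shares out of their intervals. Starts flanked by peaks on both sides moved from 41.0% to 6.25% with the q-value limit of 0.01, to 7.69% with the fold limit of 3.5 and to 26.2% with the starts of the gene table, alternatives chosen after seeing the data, as were gene-table starts and spans by subfamily and the accessory width without Kcnip1. The planned comparison of promoter CpG content was not made, because 69 of 94 genes had a sequence. No paired analysis was possible because there was 1 ChIP and 1 input library. One library per group also leaves every value without replicate error, and genes without a peak are those without a call at this depth.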
